A study of Mus musculus with 10 samples.

Results

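Genes of hepcidin signalling and iron handling, 10 in number, were followed across livers of young and old male mice and of old mice given a virus against Cd44. They were chosen by symbol: the hormone genes Hamp and Hamp2, the iron sensors Hfe and Tfr2, the BMP target Id1, the exporter Slc40a1, the importer Tfrc and its cargo Trf, and the ferritin subunits Fth1 and Ftl1. All 10 were found among the 24537 gene symbols of the count table and all 10 passed the filter on low counts, with between 120 and 492382 reads per gene and liver. Every mouse had received an adeno-associated virus (AAV8-TBG-saCas9-U6 with a guide RNA), in which a small Cas9 is driven by the hepatocyte promoter TBG. The guide was directed at Rosa26, a neutral site, in 3 young controls (virus at 7 months of age, liver taken at 9 months) and 3 old controls (virus at 23 months, liver taken at 25 months), and at Cd44, a surface receptor for hyaluronan, in 4 old mice of the same ages as the old controls. Knockout livers 1 and 2 carried guide 4 and knockout livers 3 and 4 carried guide 2. RNA came from whole liver, so that cells other than hepatocytes, in which TBG is not active, contributed unedited transcripts. No uninjected mouse was analysed here, and the control livers had also been exposed to virus and Cas9.

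Hepcidin, the product of Hamp, is a peptide hormone that hepatocytes secrete and that binds ferroportin, the iron exporter encoded by Slc40a1, and has it degraded. Iron in the liver raises Hamp through BMP ligands from sinusoidal endothelial cells, which act on a hepatocyte receptor complex with hemojuvelin and on SMAD proteins, and inflammation raises it through interleukin 6 and STAT3. Inside cells, iron regulatory proteins bind hairpins called iron-responsive elements when iron is scarce: in a 5′ UTR they block translation (ferritins, ferroportin), and in the 3′ UTR of the transferrin receptor they protect the transcript from decay.

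The hairpins that link several of these genes are printed because the importer, the exporter and both ferritins share them. They were searched for along whole GENCODE M21 transcripts on GRCm38, coding part included, sense strand only. The pattern was a C, 5 bases, the loop CAGTGN and 5 bases able to pair with the first 5. In a single transcript of each of the 10 genes, such a match was present for 4, each time in a UTR. Over all coding transcripts of each gene, 1.34% of 21877 coding genes had a match anywhere, so the shares come from unlike searches. Capitals mark the loop, bases CAGTGN. A match is a description of the letters and not a measured site.
Tfrc 3′ UTR, exon 19, chr16:32631225-32631241, plus strand: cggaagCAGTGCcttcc
Tfrc 3′ UTR, exon 19, chr16:32631604-32631620, plus strand: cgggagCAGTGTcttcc
Tfrc 3′ UTR, exon 19, chr16:32631669-32631685, plus strand: cggagaCAGTGAtctcc
Tfrc 3′ UTR, exon 19, chr16:32631716-32631732, plus strand: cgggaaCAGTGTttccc
Slc40a1 5′ UTR, exon 1, chr1:45925471-45925487, minus strand: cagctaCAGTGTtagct
Fth1 5′ UTR, exon 1, chr19:9982738-9982754, plus strand: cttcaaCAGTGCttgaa
Ftl1 5′ UTR, exon 1, chr7:45459785-45459801, minus strand: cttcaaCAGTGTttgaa

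The promoters of Hamp and Hamp2 are printed because the neighbouring genes have nearly the same sequence but differ in the BMP-responsive letters. Both are the 250 bases before the start site in RefSeq (GRCm38.p6), read 5′ to 3′ on the minus strand of chromosome 7. Capitals mark the BMP response element GGCGCC and the STAT3 site TTCTTGGAA, each searched on both strands.
Hamp, chr7:30944030-30944279, minus strand: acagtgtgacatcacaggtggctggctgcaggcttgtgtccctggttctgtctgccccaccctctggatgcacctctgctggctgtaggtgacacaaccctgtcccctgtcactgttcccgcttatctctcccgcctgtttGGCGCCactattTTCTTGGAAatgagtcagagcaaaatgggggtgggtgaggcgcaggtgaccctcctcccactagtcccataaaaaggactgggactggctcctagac
Hamp2, chr7:30924182-30924431, minus strand: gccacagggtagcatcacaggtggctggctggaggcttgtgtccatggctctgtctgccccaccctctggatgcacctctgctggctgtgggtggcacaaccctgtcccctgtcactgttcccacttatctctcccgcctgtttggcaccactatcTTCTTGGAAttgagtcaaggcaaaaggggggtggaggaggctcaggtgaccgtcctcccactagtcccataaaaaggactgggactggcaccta

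In Hamp the BMP element began 109 bases and the STAT3 site 97 bases before the start. Hamp2 held the STAT3 site 94 bases before its start but no GGCGCC, since the aligned letters were GGCACC (G4A, counted from 1 at the 5′ end of the element). GGCGCC occurred in 9.59% of 32851 promoters of this length, TTCTTGGAA in 0.365%, and both in 3 of them (0.00913%). The 2 promoters were identical at 227 of 247 aligned bases (91.9%) and the transcripts at 388 of 410 (94.6%). Of the other genes with a promoter in the table (Tfr2, Ftl1, Hfe, Tfrc, Fth1), 1 window of Tfrc held GGCGCC, 89 bases before the start, and none held the STAT3 site. Reads are 75 bases long, and 13 of 336 windows of that length in the Hamp transcript also occur in Hamp2, so that a few reads could be assigned to either gene.

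Total counts per liver ran from 15821198 to 21710228, and levels are given as CPM, counts scaled to library size and by trimmed mean of M values (TMM) factors. The labels do not say outright that each library came from a separate mouse, and p-values measure only the spread between these samples, which may be technical in part. Old control 3 stood apart, at 48.0 on the second principal component (15.9% of variance) against -33.2 to 23.4 for the other livers, and its library name lies outside the run of the other 9. Whether it is a repeat library is not stated in the labels. It is 1 of only 3 old controls, and its effect is given beside the results it touches. Of the 8 hepatocyte markers, Alb had between 53019 and 95064 CPM, and none was at 0 in all livers. Their summed level was 105030 to 132990 CPM in young, 85860 to 115430 CPM in old control and 91641 to 95065 CPM in knockout livers. Cd44, the targeted gene, had 12.6 ± 3.502 CPM in young controls (SD, n = 3), 23.4 ± 8.19 in old controls (SD, n = 3) and 19.6 ± 6.71 in the livers labelled knockout (SD, n = 4), with overlap of old control and knockout livers, so whole-liver Cd44 did not separate these labels.

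**Figure D1:**
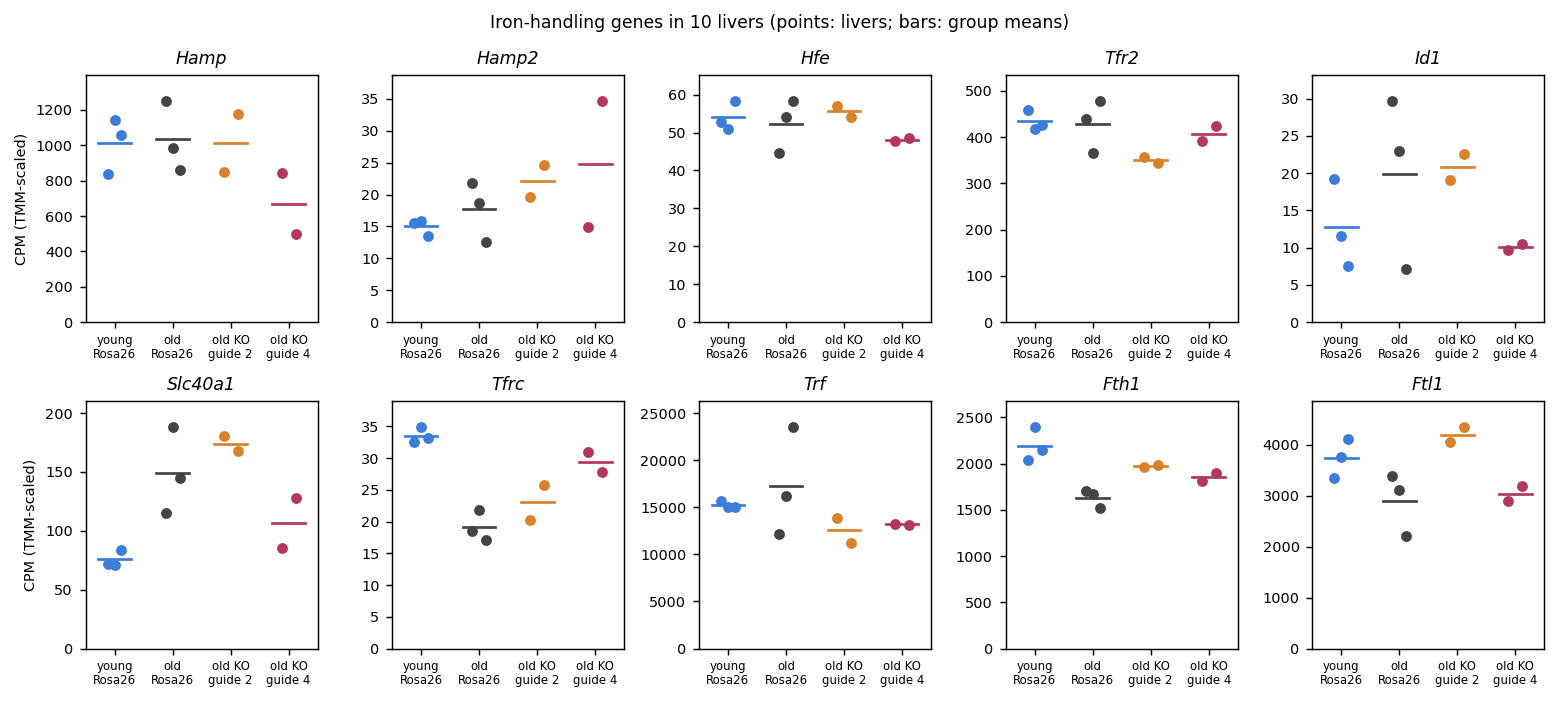
TMM-scaled CPM (vertical axes, from 0) of the 10 genes in each liver (points) with group means (bars), for young controls, old controls and the knockout livers of each guide. Slc40a1 is higher, and Tfrc and Fth1 are lower, in all 3 old controls than in all 3 young controls, whereas Hamp overlaps between all groups except the 2 guides and guide 4 against the old controls.

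Between young and old control livers, the transcript of the exporter ferroportin rose 1.97-fold and those of the transferrin receptor Tfrc and of ferritin heavy chain Fth1 fell by 42.9% and 25.5%. The transcript of hepcidin, Hamp, had similar means on this TMM scale, 1011 against 1032 CPM. These 3 of 10 genes were called at a Benjamini-Hochberg adjusted p under 0.05 (edgeR quasi-likelihood test), 1 higher and 2 lower, where 22.8% of all 13909 genes tested were called, 14.1% higher and 8.66% lower. The same 3 genes had groups that did not overlap, which was so for 37.7% of all genes. The median log2 fold change was 0.00 over the 10 genes and 0.04 over all genes.

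Hamp (chromosome 7, 30942368 to 30944032, minus strand) measured 835, 1141 and 1056 CPM in young controls. Old controls had 1249, 986 and 861 CPM. The groups overlapped in part, since 1 old control lay above all young and 1 young control below all old, with a log2 fold change of 0.03 ± 0.27 (SE) and an edgeR adjusted p of 0.946. Per kilobase of transcript Hamp, with 2315 CPM per kb over all livers, ranked below Trf (5800 CPM per kb) and Ftl1 (3559) and above Fth1 (1281). It was thus among the most abundant of these transcripts in every group.

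Hamp2, whose product is not known to control iron, lies 17686 bases away from Hamp on the same strand. It was far less abundant, at 43.9 CPM per kb. Young controls had 15.6, 15.9 and 13.5 CPM and old controls 21.8, 18.7 and 12.5 CPM. Old control 3 lay below all young livers and the other old controls above them, and the difference did not pass the test (log2 fold change 0.24 ± 0.28, edgeR adjusted p = 0.565). Summing the reads of both genes left 3 genes called for age, 1 higher and 2 lower. The calls for the other genes could hardly change by this sum, so it does not show how far reads were exchanged between the near copies.

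With TMM scaling the 2 sensors were flat with age. Hfe, an MHC class I-like protein that binds transferrin receptors, had 52.7, 51.1 and 58.3 CPM in young and 44.7, 54.0 and 58.3 CPM in old controls. Tfr2, a transferrin receptor that senses iron-loaded transferrin on hepatocytes, had 460, 417 and 427 CPM in young and 439, 366 and 478 CPM in old controls. Log2 fold changes were -0.05 ± 0.13 for Hfe and -0.02 ± 0.14 for Tfr2, with edgeR adjusted p of 0.826 and 0.928. Both ranges of old controls enclosed or nearly enclosed those of the young.

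Id1, a transcriptional inhibitor that is a direct BMP and SMAD target in hepatocytes, had the widest spread within each of the 3 groups relative to its mean among the 10 genes. Young controls had 19.3, 11.6 and 7.60 CPM and old controls 29.7, 23.0 and 7.11 CPM. The groups overlapped and the difference did not pass the test (log2 fold change 0.63 ± 0.50, edgeR adjusted p = 0.374). The lowest liver of all was old control 3. Without it the log2 fold change was 1.03 (edgeR adjusted p = 0.0676), still short of the threshold.

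Slc40a1 (chromosome 1, 45908068 to 45926523, minus strand), the only known cellular iron exporter and the target of hepcidin, had 72.1, 71.4 and 84.0 CPM in young controls. Old controls had 115, 188 and 145 CPM, all above every young liver. The group means were 75.8 ± 7.10 and 149 ± 36.5 CPM (SD, n = 3 each), and Slc40a1 rose by 0.98 ± 0.26 (log2 scale, SE; edgeR adjusted p = 0.0248). The call was lost without young control 1, 2 or 3 (edgeR adjusted p = 0.0730, 0.0942 and 0.0559) and without old control 2 (log2 fold change 0.78, edgeR adjusted p = 0.0973). It was kept without old control 3 (log2 fold change 0.996, edgeR adjusted p = 0.0225).

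Ferroportin is abundant in Kupffer cells, the liver macrophages that recycle iron from red cells, as well as in hepatocytes. Of 8 Kupffer cell markers, 6 were higher in old controls, none was at 0 in all livers, and their summed level was 206 to 291 CPM in young, 386 to 1239 CPM in old control and 344 to 618 CPM in knockout livers. Among old controls, liver 2 had both the highest marker sum and the highest Slc40a1, and liver 1 the lowest of both. Knockout livers with guide 2 had marker sums of 416 and 344 CPM with 180.2 and 168 CPM of Slc40a1, above the 145 CPM of old control 3 at a sum of 773 CPM. The part of the markers in the Slc40a1 result was not tested, and in whole liver more cells of a type and more RNA per cell cannot be told apart.

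**Figure D2:**
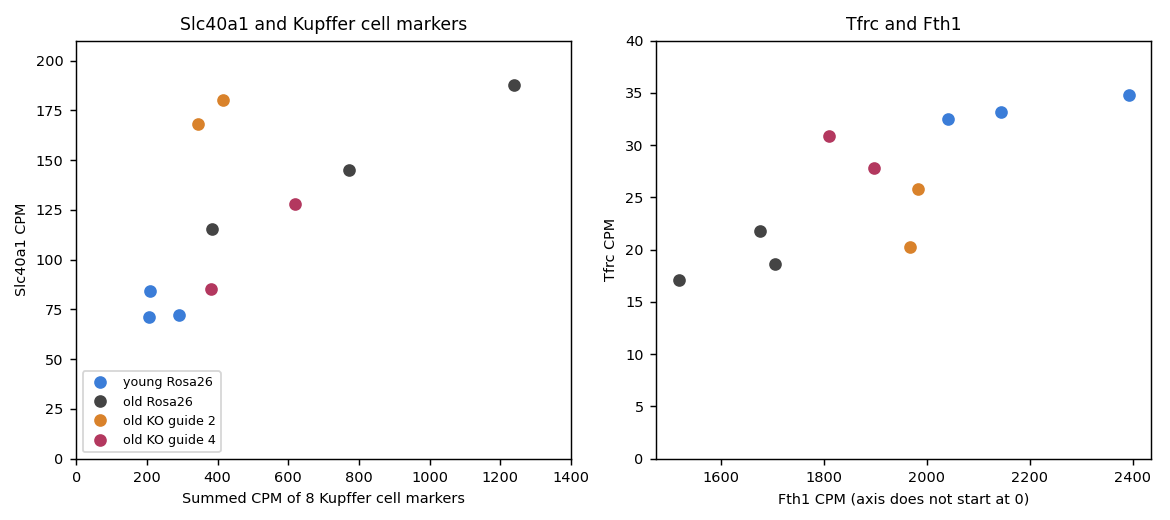
Left, Slc40a1 CPM against the summed CPM of 8 Kupffer cell markers; right, Tfrc CPM against Fth1 CPM (horizontal axis not from 0); each point is 1 of 10 livers, coloured by group. Young livers lie at marker sums of 206 to 291 CPM with 71.4 to 84.0 CPM of Slc40a1, and old controls have the 3 lowest values of Fth1.

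Tfrc (chromosome 16, 32608920 to 32632794, plus strand), the receptor that takes transferrin-bound iron into cells, was the least abundant of the 10 per length (5.37 CPM per kb). Its levels were 32.5, 34.8 and 33.2 CPM in young and 18.6, 21.7 and 17.1 CPM in old controls. The old livers all lay below the young, and the groups were tight, with 33.5 ± 1.20 against 19.1 ± 2.38 CPM (SD, n = 3 each). Tfrc fell by 0.81 ± 0.16 (log2 scale, SE; edgeR adjusted p = 0.00986). It was -0.74 without old control 3 (edgeR adjusted p = 0.00871), and the call was lost without young control 2 (edgeR adjusted p = 0.0509).

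Trf, which encodes transferrin, the plasma carrier of iron made by hepatocytes, was the most abundant of the 10. Young controls lay close together at 15650, 15001 and 15027 CPM. Old controls spread over 12194, 16202 and 23485 CPM and thus on both sides of the young. The log2 fold change was 0.18 ± 0.22 (edgeR adjusted p = 0.570) and turned to -0.11 without old control 3, the liver with the highest value.

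Fth1 encodes the ferritin heavy chain, which oxidises iron for storage. It had 2041, 2392 and 2144 CPM in young controls. Old controls had 1706, 1675 and 1518 CPM, all lower (log2 fold change -0.42 ± 0.13, edgeR adjusted p = 0.0420). The call was lost in a fit of the 2 groups alone (edgeR adjusted p = 0.141), with no filter on low counts (0.0760), and without any 1 of the young controls or old control 2, where it ran up to 0.148. It was kept without old control 3 (edgeR adjusted p = 0.0373).

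Ftl1 encodes the light chain, which supports formation of the iron core. Its values of 3353, 3762 and 4113 CPM in young and 3394, 3111 and 2217 CPM in old controls overlapped in 1 liver. The log2 fold change of -0.36 ± 0.21 did not pass the test (edgeR adjusted p = 0.225). Old control 3 was again the lowest liver, and without it the log2 fold change was -0.21.

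Scaling matters for the genes that fell and for those that were flat. With total counts alone, without TMM factors, the median of all genes moved by 0.31 on the log2 scale, and 3872 of 4226 called genes were higher in old controls, against 1967 of 3172 with TMM. On that scale the log2 values were -0.49 for Tfrc (edgeR adjusted p = 0.0543) and -0.11 for Fth1 (edgeR adjusted p = 0.560), and both genes lost their calls. Hamp, Trf and Id1 stood at 0.35, 0.47 and 0.99 with total counts (edgeR adjusted p = 0.354, 0.0771 and 0.174). None of them was called on either scale, but the near-equal means of Hamp hold for TMM only. Of the 8 hepatocyte markers, 2 also fell between young and old controls, Hnf4a by 0.96 and Serpina1c by 0.77 on the log2 scale (edgeR adjusted p = 0.0147 and 0.0129), and the median of the list was -0.41. Their part in the lower values of Tfrc, Fth1, Slc39a14 and the other genes that fell was not tested. Relative to the median gene, Tfrc stood at -0.83 with total counts and -0.84 with TMM, Fth1 at -0.45 and -0.46, and Slc40a1 at 0.94 with each. A change of scaling moves all genes of a comparison nearly alike, so these distances could hardly differ. They do not show which scale is right or that the calls are free of it.

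**Figure D3:**
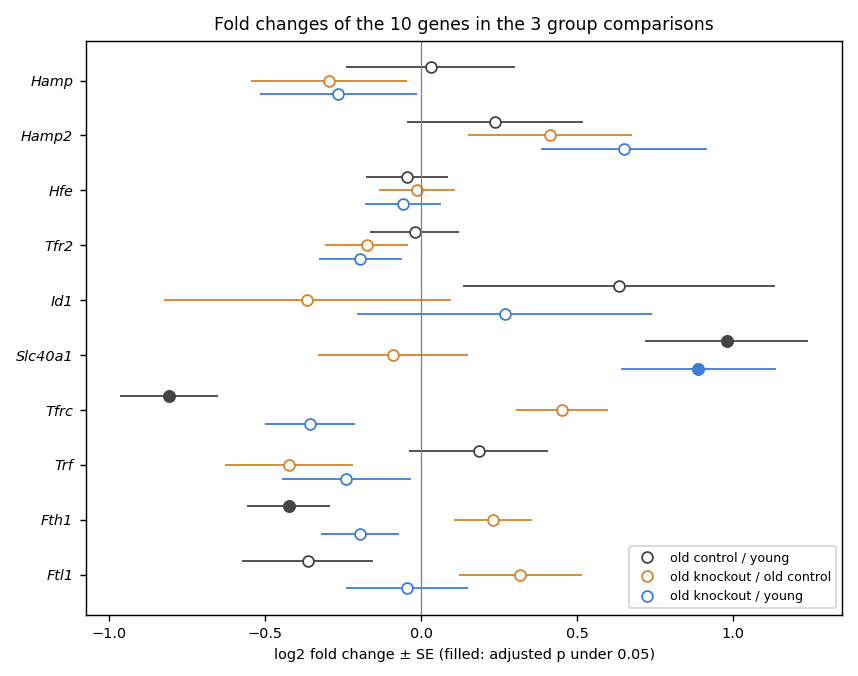
Log2 fold changes with standard errors (horizontal axis) of the 10 genes in 3 comparisons: old control against young, old knockout against old control, and old knockout against young. Filled points passed an adjusted p under 0.05: Slc40a1 in both comparisons with young livers, and Tfrc and Fth1 between old and young controls.

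The wider pathway was read from 8 lists with 90 entries, of which 85 were tested. Between old and young controls 15 were called (17.6%, against 22.8% of all genes), 6 higher and 9 lower, with a median log2 fold change of -0.09. Without old control 3 the count was 37 (12 higher, 25 lower), and with total counts alone it was 18 (17 higher, 1 lower). The cause of these shifts was not tested. Leaving out young control 2 or old control 2 reduced it to 1 and 2.

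Of 25 BMP and SMAD genes tested, 5 were called. Among the ligands, Bmp5 went from 4.50 ± 0.554 CPM in young to 10.9 ± 2.22 CPM in old controls (SD, n = 3 each) and rose by 1.27 ± 0.18 (log2 scale, SE; edgeR adjusted p = 0.00667), and this call held under all 13 alternatives run. Bmp6, the main iron-responsive ligand of the liver, had 5.87, 2.77 and 5.58 CPM in young and 8.85, 6.66 and 4.39 CPM in old controls. The log2 fold change of Bmp6 was 0.48 ± 0.30 (edgeR adjusted p = 0.263), and that of Bmp2, the other endothelial ligand, 0.20 ± 0.24 (edgeR adjusted p = 0.573). Neither ligand separated the groups.

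Sinusoidal endothelial markers moved as well: 7 of 8 were higher in old controls, with sums of 152 to 210 CPM in young, 293 to 362 CPM in old control and 188 to 266 CPM in knockout livers, and none at 0 in all livers. Their part in the ligand values was not tested. At the receptor, hemojuvelin (Hfe2 in the table) had 92.1, 101 and 101.5 CPM in young and 177, 117 and 86.3 CPM in old controls (log2 fold change 0.37 ± 0.21, edgeR adjusted p = 0.232). Tmprss6, the protease that cleaves hemojuvelin, stood at -0.10 ± 0.17 on that scale (edgeR adjusted p = 0.678). The type II receptor Acvr2a fell by 0.35 on the log2 scale (edgeR adjusted p = 0.0465), a call kept under 4 of 13 alternatives.

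The targets of the pathway did not move together. Smad6, an inhibitory SMAD induced by BMP signals, had 8.44, 4.35 and 6.15 CPM in young and 11.8, 16.96 and 9.35 CPM in old controls and rose (log2 fold change 1.01 ± 0.27, edgeR adjusted p = 0.0263). For Smad7, the other inhibitory SMAD, the log2 value was 0.088 ± 0.28 (edgeR adjusted p = 0.839). Id2 and Id3, paralogs of Id1, fell by 0.72 and 0.67 on the log2 scale (edgeR adjusted p = 0.0229 and 0.0257). So the BMP targets included 1 that rose, 2 that fell and Id1 and Smad7 that did not pass. With total counts alone, Id2 and Id3 lost their calls (edgeR adjusted p = 0.0951 and 0.215). Of 13 alternatives, the call was kept in 9 for Smad6, 9 for Id2 and 8 for Id3.

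In the interleukin 6 and STAT3 list 2 of 10 genes were called. Cebpb, a transcription factor of the acute phase, fell by 0.77 on the log2 scale (edgeR adjusted p = 0.0235), and the kinase Tyk2 rose by 0.33 (edgeR adjusted p = 0.0388). Of 11 genes of import and plasma transport, 2 were called. Slc39a14, which takes up iron not bound to transferrin, fell from 499 ± 28.3 to 248 ± 76.3 CPM (SD, n = 3 each; edgeR adjusted p = 0.0201). Steap2, a metalloreductase, rose from 4.54 to 11.7 CPM (edgeR adjusted p = 0.0151). The call was kept in only 5 of 13 alternatives for Tyk2 and 7 for Cebpb, and in 10 for Slc39a14 and 11 for Steap2.

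Beside Slc40a1, 2 of 3 export genes were called: Abcg2, a transporter of porphyrins among other substrates, fell by 0.73 on the log2 scale (edgeR adjusted p = 0.0212), and the ferroxidase Heph rose by 1.60 (edgeR adjusted p = 0.0311), from a mean of 0.420 to 1.29 CPM. Heph rested on few reads, with 0.428, 0.198 and 0.634 CPM in young controls. Young control 2 lay near the floor of 3 counts, so the size of this rise is uncertain. No gene of the 5 for storage and iron chaperones and none of the 3 for regulation of the iron regulatory proteins was called by edgeR, DESeq2 or limma voom (2 and 0 of them at an unadjusted p under 0.05, edgeR). In heme metabolism 2 of 14 were called, with Alas2, the erythroid form of the first enzyme of heme synthesis, at -0.75 and Ppox, a later enzyme, at 0.69 on the log2 scale (edgeR adjusted p = 0.0247 and 0.0492). Of 14 mitochondrial genes, the iron-sulfur cluster genes Iscu and Isca1 each fell by 0.44 (edgeR adjusted p = 0.0300 and 0.0329). Calls were kept in 6 of 13 alternatives for Ppox and Isca1, 8 for Abcg2 and Iscu, and 9 for Heph and Alas2. Erythroid markers, which bear on Alas2, summed to 973 to 1104 CPM in young, 770 to 1706 CPM in old control and 948 to 2194 CPM in knockout livers, and their part was not tested.

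**Figure D4:**
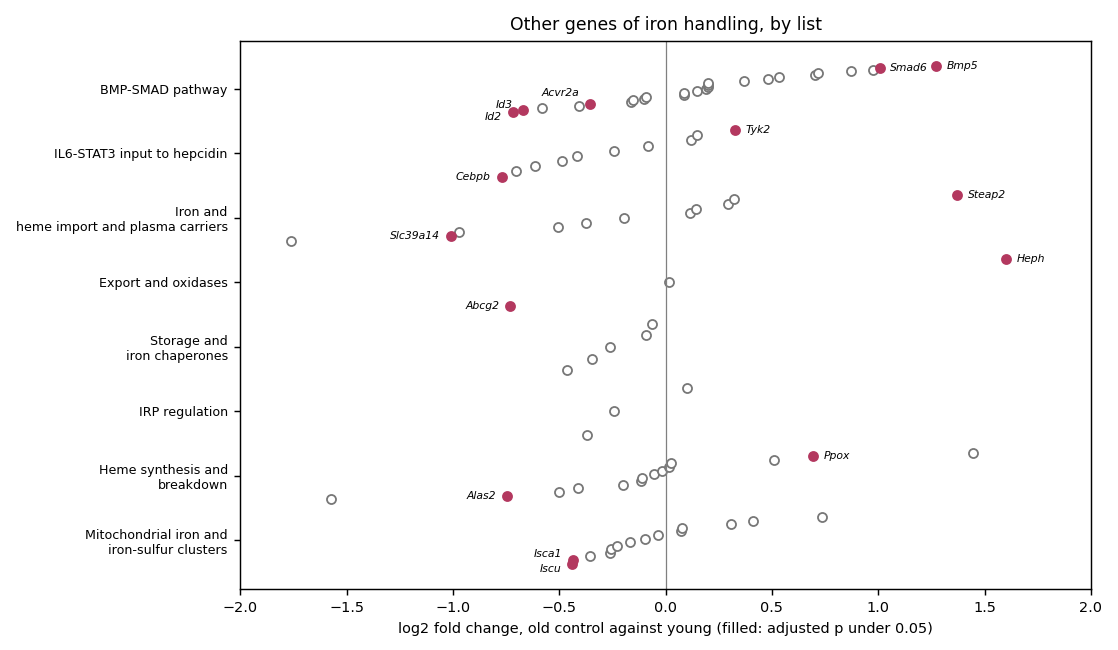
Log2 fold changes (horizontal axis) of the 85 other genes of iron handling between old and young controls, 1 point per gene, in rows by list, with filled and named points for those at an adjusted p under 0.05. Bmp5, Smad6, Steap2 and Heph lie at 1.01 to 1.60, and Slc39a14 lies lowest of the called genes at -1.01.

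Between old knockout and old control livers none of the 10 genes was called, and none of all 13909 (0%). At an unadjusted p under 0.05, edgeR gave 916 of all genes and 1 of the 10, Tfrc. DESeq2 called 8 of all genes and limma voom 0, and neither called any of the 10 (3 and 1 at an unadjusted p under 0.05). The median log2 fold change was -0.05 over the 10 genes and -0.02 over all. This comparison shares the old controls with the comparison of ages, so the values of each are set side by side and no relation between them is drawn.

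Tfrc had 30.9, 27.8, 20.3 and 25.8 CPM in knockout livers 1 to 4, against 17.1 to 21.7 CPM in old controls and 32.5 to 34.8 CPM in young. Only knockout liver 3 lay within the old control range. The log2 fold change against old controls was 0.45 ± 0.15 (edgeR adjusted p = 0.744), and without old control 3 it was 0.38. Fth1 had 1810.2, 1896, 1967 and 1982 CPM, above all old controls and below all young (log2 fold change against old controls 0.23 ± 0.13, edgeR adjusted p = 0.772). It was the 1 gene of 10 whose knockout and old control values did not overlap, which was so for 6.1% of all genes.

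Hamp in the knockout livers was 841, 499, 848 and 1176 CPM. The lowest of all 10 livers was knockout liver 2, with guide 4, and the mean of 841 ± 276 CPM (SD, n = 4) was not distinguishable from the 1032 ± 198 CPM of old controls (log2 fold change -0.30 ± 0.25, edgeR adjusted p = 0.837). Hamp2 had 15.0, 34.6, 19.7 and 24.7 CPM. The same knockout liver 2 held its highest value (log2 fold change against old controls 0.41 ± 0.26, edgeR adjusted p = 0.794). In this liver Hamp2 reads numbered 794 against 11433 for Hamp.

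Slc40a1 had 85.2, 128, 180.2 and 168 CPM in knockout livers, on both sides of the old control mean (log2 fold change -0.09 ± 0.24, edgeR adjusted p = 0.960). Id1 had 9.76, 10.5, 19.1 and 22.5 CPM (log2 fold change -0.37 ± 0.46, edgeR adjusted p = 0.901). Trf, at 13261, 13136, 13907 and 11259 CPM, stood at -0.42 ± 0.21 on the log2 scale (edgeR adjusted p = 0.750), which was -0.14 without old control 3. Ftl1, with 2903 to 4346 CPM, had 0.32 ± 0.20. Hfe, with 47.8 to 57.1 CPM, and Tfr2, with 344 to 423 CPM, had log2 fold changes of -0.01 ± 0.12 and -0.17 ± 0.13. None of the 85 other pathway genes was called by edgeR, DESeq2 or limma voom (5 at an unadjusted p under 0.05, edgeR).

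Against young controls, the knockout livers had 1 of the 10 genes called, higher, where 11.6% of all genes were (6.64% higher and 4.97% lower). Slc40a1 was 1.85-fold higher, at 140 ± 43.0 CPM (SD, n = 4) against 75.8 ± 7.10 CPM (SD, n = 3), or 0.89 ± 0.25 on the log2 scale (edgeR adjusted p = 0.0431). This call was lost with limma voom (adjusted p = 0.0571) and on leaving out any 1 liver other than knockout liver 1, with edgeR adjusted p of 0.0819 to 0.156. Tfrc and Hamp2 were at -0.36 ± 0.14 and 0.65 ± 0.27 on the log2 scale (edgeR adjusted p = 0.114 and 0.117). With total counts alone Hamp2 was called too, at 0.98 (edgeR adjusted p = 0.0363). Groups did not overlap for Tfrc, Trf, Slc40a1 and Fth1, 4 of 10 genes against 40% of all.

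In the pathway lists 11 of 85 genes were called between knockout and young livers (12.9%), 2 higher and 9 lower, and without young control 2 none was. With total counts alone 20 were, 16 higher and 4 lower. Bmp5 and Smad6 were higher, by 1.13 and 1.02 on the log2 scale. Among those lower were Id2 (-0.80), Id3 (-0.68), the interleukin 6 receptor Il6ra (-1.47), Stat3 (-1.02), Slc39a14 (-0.99), the hemoglobin scavenger receptor Cd163 (-1.72) and the metalloreductase Steap4 (-2.27), with edgeR adjusted p between 0.0140 and 0.0462. Of 14 alternatives, the call was kept in 5 for Stat3, 7 for Id3, 8 for Smad6, Id2, Cd163 and Steap4, 9 for Slc39a14, and 13 for Bmp5 and Il6ra. In old against young controls Il6ra and Stat3 had -0.70 and -0.62 (edgeR adjusted p = 0.0896 and 0.172). Both comparisons share the young livers, and whether the 2 differ is the knockout comparison, in which neither gene was called. There Il6ra had -0.77 ± 0.26 and Stat3 -0.40 ± 0.29 on the log2 scale (edgeR adjusted p = 0.744 and 0.811). Knockout and old control values overlapped for Stat3 but not for Il6ra, and 6.1% of all genes did not overlap.

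The 2 guides could be set against each other with 2 livers each. In a fit with 1 coefficient per guide, none of the 10 genes was called, where 0.0212% of 14153 genes were, and edgeR gave 623 of all genes and 1 of the 10 an unadjusted p under 0.05. DESeq2 called 74 of all genes and, like limma voom, 0 of the 10. Slc40a1 was lower with guide 4, with 85.2 and 128 CPM against 180.2 and 168 CPM (log2 fold change -0.71 ± 0.25, edgeR adjusted p = 0.898). For guide 4 Hamp measured 841 and 499 CPM, and for guide 2 it measured 848 and 1176 CPM (log2 fold change -0.59 ± 0.29). Id1 had 9.76 and 10.5 CPM against 19.1 and 22.5 CPM (log2 fold change -1.04 ± 0.56). The edgeR adjusted p of the other 9 genes was above the 0.898 of Slc40a1.

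The values of the guides did not overlap for 8 of the 10 genes, 6 lower and 2 higher with guide 4, against 38.6% of all genes. Against the shared old controls, no gene of the 10 was called for either guide by edgeR, DESeq2 or limma voom (with edgeR, 0.0495% of all genes for guide 2 and 0% for guide 4). At an unadjusted p under 0.05, edgeR gave Ftl1 for guide 2 (log2 fold change 0.53 ± 0.20, edgeR adjusted p = 0.637). For guide 4 it gave Tfrc (0.62 ± 0.15) and Hamp (-0.62 ± 0.27), both with an edgeR adjusted p of 0.981.

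Whether Hamp varied from liver to liver along with other iron genes was examined over the 10 livers, on log2 CPM. The 13 partners were the other 9 genes and Smad6, Smad7, Bmp2 and Bmp6, of which only some are regulators of Hamp. No partner passed, with adjusted p of 0.909 for every Pearson r and 0.973 for every Spearman rho (permutation tests, two-sided). For Id1, r was 0.38 (permutation p = 0.296) and rho 0.41 (permutation p = 0.247), and r was 0.22 without the 2 livers farthest from the median of Id1. Within the 7 old livers alone Id1 had r of 0.65 and rho of 0.71 (exact permutation p = 0.0889 and 0.0881, adjusted 0.802 and 0.867). Hamp2 had r of -0.39 (permutation p = 0.270) but rho of 0.10 (permutation p = 0.785), and r turned to 0.38 without knockout livers 2 and 4. For Bmp6, r was 0.07 (permutation p = 0.818) and rho 0.13 (permutation p = 0.734), with r of 0.23 without old control 1 and young control 2. The young group of 3 livers was too small for a value of its own.

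**Figure D5:**
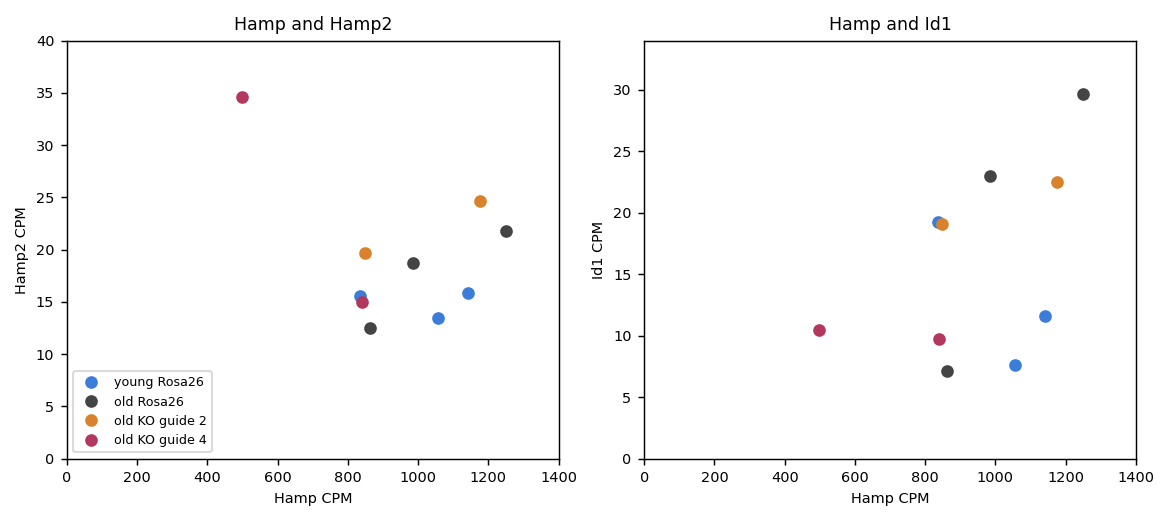
Hamp2 CPM (left) and Id1 CPM (right) against Hamp CPM in the 10 livers, with all axes from 0 and colours by group. Knockout liver 2, with guide 4, has the lowest Hamp (499 CPM) and the highest Hamp2 (34.6 CPM) of all livers.

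Other genes with the most similar profile over the 10 livers were taken from 9961 genes with a mean of at least 5 CPM, by Pearson r of log2 CPM, as a description only. For Hamp they were Kcnn2 (r = 0.89), Guf1 (0.82) and Actr6 (0.81). For Id1 they were Pum2 (0.93), Dnajc7 (0.93) and Rpl22l1 (0.92), and for Tfrc they were Kif5b (0.97), Hopx (0.96) and Rnf7 (0.96). Hopx, which ran from 80.3 to 101 CPM in young controls, from 42.9 to 55.9 CPM in old controls and from 56.2 to 87.0 CPM in knockout livers, had the order of groups seen for Tfrc. The livers share group, composition and scaling, and the highest of many values is large by selection.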

How the data were processed

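Whole-liver RNA was selected for polyadenylated transcripts and sequenced as paired reads of 75 bases, per the labels' protocols. What the authors deposited is a table of raw read counts by gene symbol, 1 column per liver, without normalization. FastQC 0.11.8, Trim Galore 0.4.4, STAR 2.5.3a, HOMER and mm10 are named, per the submitters' processing notes. The annotation, the counter's settings and the use of strand are not given in the sources used here, so reads of overlapping or antisense genes could not be told apart. Groups follow the labels, whose library names share no number between groups, so replicates were numbered by record order and not paired. Libraries of a group differed beyond counting noise (chi-square per degree of freedom of at least 20.3).

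Counts were tested with edgeR 4.0.16 in R 4.3.3 (quasi-likelihood test, TMM factors, filterByExpr with a minimum count of 10 and a minimum total of 15, 13909 genes), with 1 coefficient per group over all 10 livers and Benjamini-Hochberg adjustment over all genes tested. Guides were compared in a fit with 1 coefficient each. The biological coefficient of variation was 21.8%. At these depths 3 counts correspond to 0.138 to 0.190 CPM before TMM scaling, and this floor covers counting error only. Correlations used log2 CPM with a prior count of 2 and 100000 resamples, or all 5040 orders of 7 livers. Alternatives were RLE factors, total counts, no filter, DESeq2 1.42.0, limma 3.58.1 (voom), fits of the compared groups alone, Hamp and Hamp2 summed, and leaving out each liver. The fits were also run on simulated counts with 200 changed genes, all livers drawn from common means with the fitted dispersions. Such counts hold no outlying liver and no shift of composition, so they cannot show how these affect the calls.

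The 10 genes and all lists were chosen with earlier results of these data known. Beyond the 10 genes, the text names at most 5 members per list with an adjusted p under 0.05 in the comparison, the genes Bmp2, Bmp6, Hfe2, Tmprss6, Smad6 and Smad7 whatever their result, and the 3 most similar profiles. Entries without a symbol in the table (2) were not analysed here.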

Additional observations from a re-analysis of the deposited data

How the results depend on the processing

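No paired analysis was possible because the library names in the labels share no number between groups, and the replicate numbers used here follow record order. Of the alternatives to single log2 fold changes, 912 kept direction and side of the threshold, 153 lost the call, 1 gained it and 37 changed sign. Most of the values behind these counts were not called in the main fit and so could not lose a call. The 153 losses thus all fall on the called values, and 912 does not measure how often a call was kept. Among the 10 genes, 3 were called for age, 1 with total counts alone, and 0 to 3 on leaving out 1 liver. For knockout against young, 1 was called, 2 with total counts alone, 0 with limma voom, and 0 to 1 on leaving out 1 liver.

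Counts over all genes moved more. For age, 3172 genes became 1192 in a fit of the compared groups alone and 396 to 5327 on leaving out 1 liver, lowest without young control 2 and highest without old control 3. For knockout against old control, 0 became 8 with DESeq2 and 0 to 3 on leaving out 1 liver. For knockout against young, 1614 became 3585 with total counts, 2803 with DESeq2, 969 with limma voom, 4223 in a fit of the compared groups alone and 56 to 1652 on leaving out 1 liver. For the guides, 3 became 10 without a filter, 74 with DESeq2, 36 in a fit of the compared groups alone and 0 to 0 on leaving out 1 liver. For guide 2 against old control, 7 became 4 with RLE factors, 11 with total counts, 25 without a filter, 111 with DESeq2, 15 with limma voom, 1 in a fit of the compared groups alone and 0 to 3 on leaving out 1 liver. For guide 4 against old control, 0 became 1 with DESeq2. The cause was not tested.

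The changes of sign were all in values that were not called. With total counts alone, log2 fold changes for age were 0.28 for Tfr2 and 0.25 for Hfe, the one for knockout was 0.0043 for Hfe, and those for knockout against young were 0.052 for Hamp, 0.12 for Tfr2, 0.078 for Trf, 0.13 for Fth1, 0.27 for Ftl1 and 0.26 for Hfe. On leaving out 1 liver, age values ran from -0.13 to 0.14 for Hamp, -0.11 to 0.077 for Tfr2, -0.11 to 0.38 for Trf and -0.13 to 0.053 for Hfe. Knockout values ran from -0.25 to 0.11 for Slc40a1, -0.11 to 0.071 for Hfe and -0.77 to 0.039 for Id1. Against young livers, they ran from -0.14 to 0.046 for Ftl1 and -0.0037 to 0.68 for Id1. Between guides they ran from -0.56 to 0.64 for Hamp2 and -0.075 to 0.23 for Trf, and for guide 2 against old control from -0.28 to 0.20 for Hamp, -0.34 to 0.47 for Id1 and -0.014 to 0.17 for Hfe. For guide 4 against old control they ran from -0.23 to 0.97 for Hamp2, -0.17 to 0.019 for Tfr2 and -0.094 to 0.19 for Ftl1. Where a guide was left with 1 liver, that liver was assumed to vary like the other groups. Correlations of Hamp over the 7 old livers had r of 0.16 for Slc40a1 and -0.16 for Fth1, opposite in sign to those over 10 livers. With 2 to 4 livers per group, the precision of all these values was limited. The parts of read depth and of the spread between livers in it were not compared gene by gene.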
